A study of Trichoderma asperellum with 12 samples.

Results

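The genes described here are the metal and ion homeostasis transporters and pumps of Trichoderma asperellum, a soil fungus used for biocontrol. They were taken from the annotation deposited with the expression table, where a gene belongs if its first KEGG orthology description names a V-type or other proton-transporting ATPase (F-type left out), a calcium-transporting or P-type pump, a transporter of zinc, iron or phosphate, or contains siderophore, ferric, ferroxidase, copper, potassium or Na+, superoxide dismutases being left out. The rule found 114 of the 11647 genes in the table, and expression values played no part in it. It read the wording only, and no gene was matched through the words P-type. The Cu+-exporting ATPase genes jgi_Trias1_132651, jgi_Trias1_148504 and jgi_Trias1_72226 were therefore outside the set and its copper role, and were counted with the related genes. The genes were sorted by KEGG number into 12 roles, of which phosphate transport (18 genes), the SLC30 family of zinc transporters (16 genes) and the V-type ATPase (15 genes) were the largest.

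All samples were mycelium of strain TJ01, grown in PD medium and then moved to Burk broth for 24 h at 28 °C and 180 rpm. The broth held 0 μg/mL (control, CK), 100 μg/mL (D1), 500 μg/mL (D5) or 1000 μg/mL (D10) of dichlorvos, an organophosphate insecticide, and no gene was deleted or added. Each group had 3 RNA-seq libraries, and the values are FPKM, that is fragments counted per kilobase of transcript and scaled to the mapped total of the library, so levels can be set side by side between genes. The experiment was repeated for each library, but nothing says whether the libraries came from separate spore stocks or days, so the p-values measure the spread between these libraries. In RNA from a whole culture, fewer cells of a type and less RNA per cell cannot be told apart, and with no marker list for mycelium the label was taken as given. The protocol names no step that keeps the strand, so reads of overlapping genes cannot be told apart.

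A fungal hypha holds its membrane potential with a plasma membrane proton pump, a single-subunit P-type ATPase, and many nutrients and ions enter by symport with the protons it expels. The V-type ATPase, a complex of many subunits, acidifies the vacuole, where zinc, calcium and phosphate are stored. Sodium is expelled by P-type pumps, potassium enters through carriers and channels, and copper, zinc and iron have both uptake systems and systems that remove or store the surplus, since each metal is needed and toxic in excess. Iron is reduced at the surface by ferric reductases or taken up bound to siderophores, small iron chelators.

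Gene names here rest on sequence similarity. The KEGG match had an E-value above 1e-50, called weak below, in 43 of the 114 genes, and 10 of the 16 SLC30 genes matched 1 and the same Cordyceps protein. For 3 genes the closest protein in the general database was of another kind: a glycosyltransferase for jgi_Trias1_48695, a TPR domain protein for jgi_Trias1_447446 and a fungal zinc-cluster DNA-binding protein for jgi_Trias1_82149. The copper role holds 2 copper-fist transcription factors, which are regulators and not transporters, and the mitochondrial carriers hold a thiamine pyrophosphate carrier.

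One library stood apart from the rest. CK replicate 1 correlated with the other CK libraries at r = 0.8955 and 0.8966 over log2 values, whereas the libraries of each dose correlated among themselves at r of 0.9696 to 0.9836. The depth of CK replicate 1 relative to CK replicate 2, estimated roughly from ratios of very low FPKM values, was 0.829. Of the 100 genes of the rule with a mean of at least 1 FPKM, which were the ones tested, 65 were higher in CK replicate 1 than in the mean of CK replicates 2 and 3, against 6117 of all 8916 tested genes. The counts of called genes at each dose over the whole set are therefore given over 12 libraries and without CK replicate 1. The same was done for many single roles and genes, and where only 1 value stands it is from 12 libraries unless stated. The 3 doses were compared with the same CK libraries, so their comparisons are not independent of each other.

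A gene was called when limma on log2(FPKM + 1) gave a change of more than 1 on the log2 scale with a Benjamini-Hochberg adjusted p, taken over all tested genes, under 0.05. Over 12 libraries, 1 gene was called higher and 3 lower at 100 μg/mL, against 4.6% and 0.538% of all tested genes. At 500 μg/mL 8 were higher and 6 lower, against 10.6% and 3.48%, and at 1000 μg/mL 18 were higher and 14 lower, against 19.2% and 7.81%. Thus the share of higher genes was near that of all genes at 1000 μg/mL and the share of lower genes was above it. Without CK replicate 1 the counts were 4 higher and 3 lower at 100 μg/mL (all genes 7.67% and 1.05%), 11 and 5 at 500 μg/mL (16.8% and 4.31%), and 26 and 11 at 1000 μg/mL (25.9% and 7.68%). The genes gained at 100 μg/mL were jgi_Trias1_26235, jgi_Trias1_64639 and jgi_Trias1_149833. Of the calls at the top dose, 17 higher and 11 lower were made both with and without that library. Among the genes called higher at this dose, jgi_Trias1_61683 and jgi_Trias1_62150 reached the mean needed for testing only through the libraries at 1000 μg/mL. Among those called lower, jgi_Trias1_151795 reached it only through CK. The median log2 fold change at 1000 μg/mL was 0.18 in the genes of the rule and 0.18 in all tested genes.

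The split depended on scaling. Centring each library on its median moved the median of all tested genes at 1000 μg/mL to -0.08, and the calls then numbered 13 higher and 17 lower (all genes 14.3% and 12.5%). Without CK replicate 1 and with centring, 12 were higher and 20 lower (14.7% and 17.0%). By role, centring over 12 libraries left 3 copper genes higher, 1 V-type ATPase gene higher, no potassium gene higher, and 3 calcium genes and 1 mitochondrial carrier lower, and it turned the median negative for the iron transporters (-0.21), the mitochondrial carriers (-0.22), phosphate transport (-0.14) and the SLC30 family (-0.0044). The F-test over the 4 groups passed for 38 genes over 12 libraries, against 34.0% of all genes, and for 60 without CK replicate 1, against 56.9%. A rule written after NOISeq for these FPKM values, which weighs a change against the noise between replicates, was stricter than limma here. It is called the NOISeq rule below, but the NOISeq program itself was not run, so its counts may differ from those of the program. It called 0 higher and 1 lower at 100 μg/mL (all genes 0.527% and 0.134%), 1 and 2 at 500 μg/mL (1.54% and 0.381%) and 5 and 3 at 1000 μg/mL (3.37% and 1.26%). By the same rule without CK replicate 1 the counts were 0 and 1 (1.84% and 0.324%), 4 and 2 (4.37% and 1.57%) and 7 and 7 (7.68% and 3.38%) in the same order of doses.

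**Figure D1:**
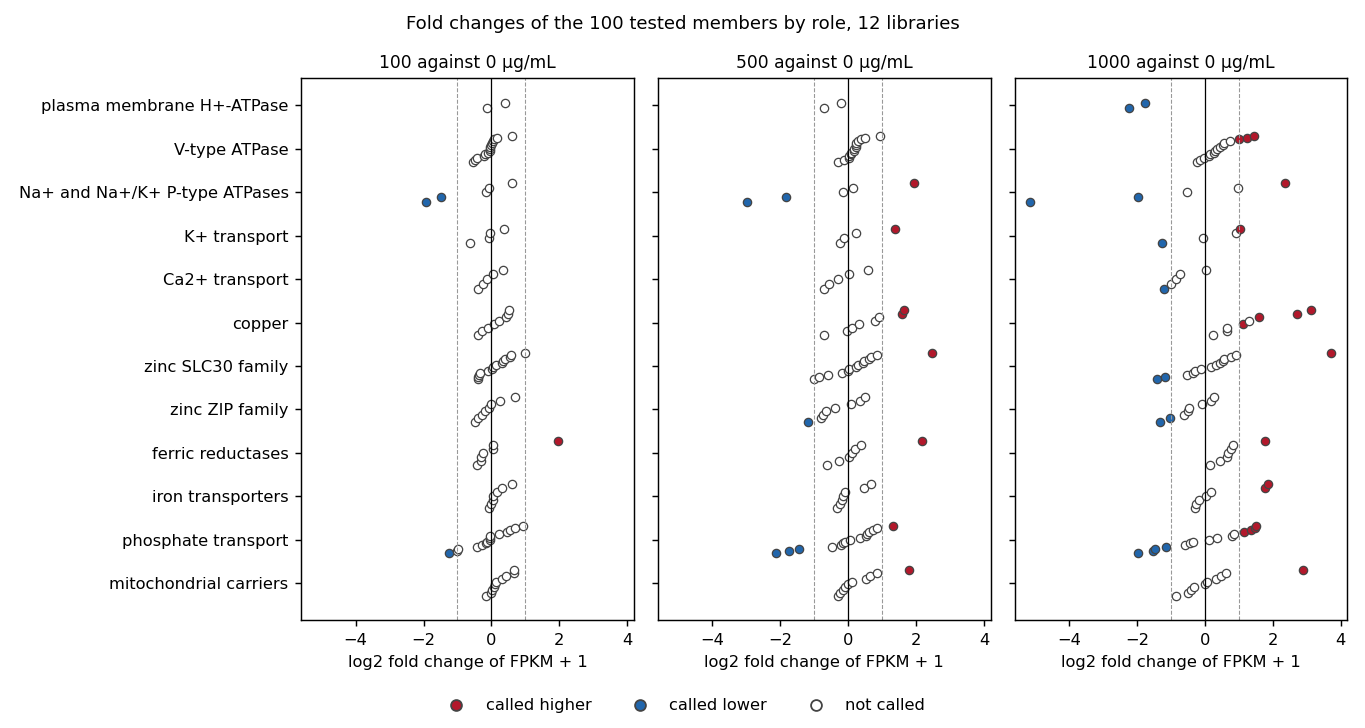
Log2 fold change of FPKM + 1 (horizontal) of the 100 tested genes, 1 point each, by role (vertical), at 100, 500 and 1000 μg/mL dichlorvos against untreated mycelium over 12 libraries; red points were called higher, blue lower, and dashed lines mark 1 and -1. Calls increased from 4 at 100 μg/mL to 14 at 500 μg/mL and 32 at 1000 μg/mL, and the Na+/K+-transporting ATPase gene at -5.14 lies farthest from 0.

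Over 12 libraries 33 genes were called at 1 or more doses, 19 higher and 14 lower, and none was called in opposite directions at different doses. Of these, 11 of the higher and 8 of the lower calls came at 1000 μg/mL alone. A ferric reductase gene (jgi_Trias1_77627) was higher at all 3 doses, and 3 genes were lower at all 3 doses, namely the Na+/K+-transporting ATPase genes jgi_Trias1_24714 and jgi_Trias1_151795 and the phosphate transporter gene jgi_Trias1_55602. Of these 3, jgi_Trias1_151795 was tested only because it was high in CK. The counts over several doses were not made for all tested genes, so they cannot be set against a share of all genes.

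**Figure D2:**
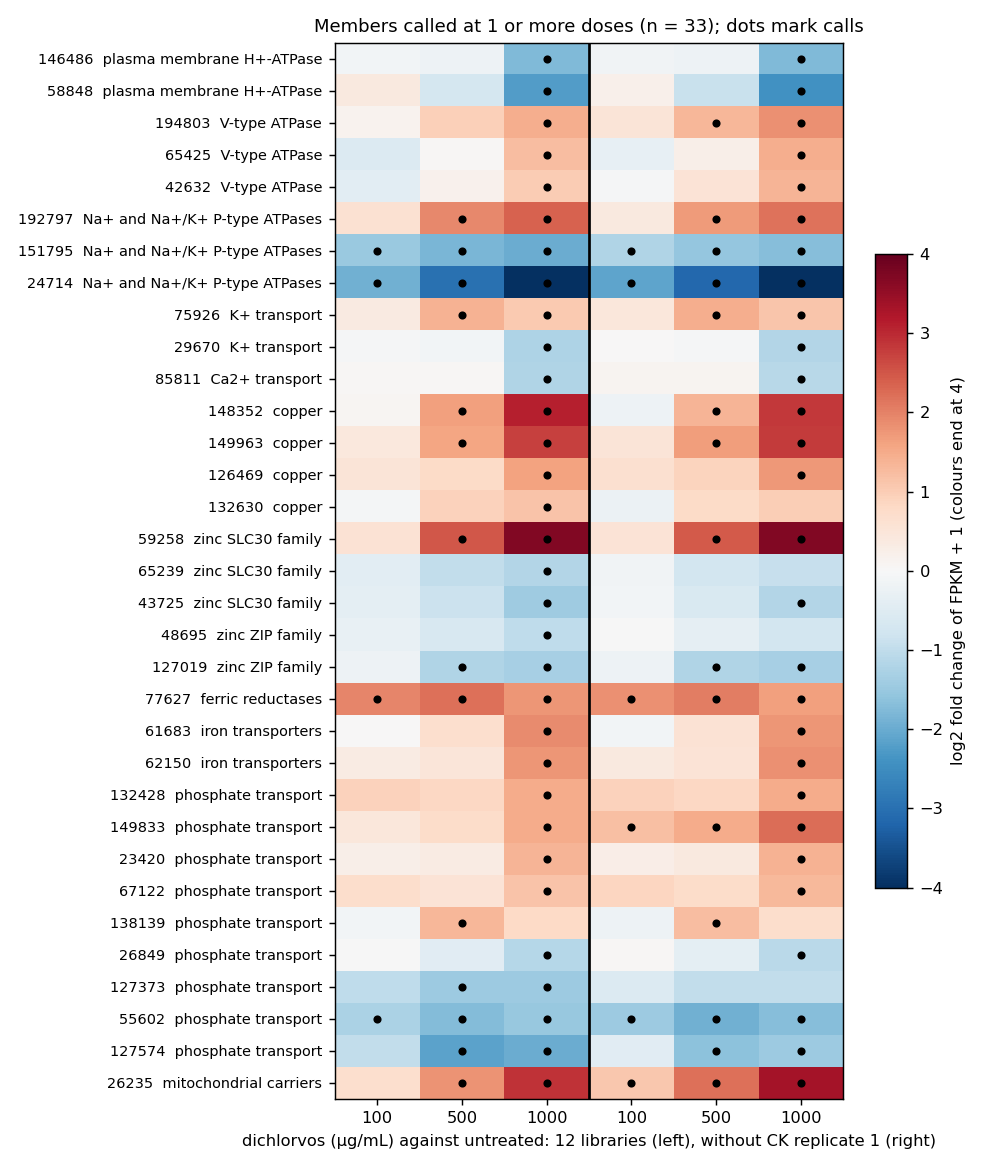
Log2 fold change of FPKM + 1 (colour, red higher and blue lower in treated mycelium) of the 33 genes called at 1 or more doses (rows, labelled by the digits of the gene identifier and the role) at 100, 500 and 1000 μg/mL dichlorvos, over 12 libraries on the left and without CK replicate 1 on the right; dots mark calls. The direction at 1000 μg/mL was the same on both sides for all 33 genes, while the dots of jgi_Trias1_132630, jgi_Trias1_65239, jgi_Trias1_48695 and jgi_Trias1_127373 at 1000 μg/mL are absent on the right.

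The proton pump of the plasma membrane was the most abundant transcript of the 114. jgi_Trias1_146486, the match to this P-type ATPase, had 1853, 1131 and 1209 FPKM at 1000 μg/mL, against 4609.6, 5018 and 4350.2 FPKM in CK. All 3 libraries at 1000 μg/mL were below all 3 of CK (log2 fold change -1.77 ± 0.23 SE, adjusted p = 8.29e-05), and the ratio of the means, CK over 1000 μg/mL, was 3.33. At lower doses it was not called, with 4314, 4306 and 4185 FPKM at 100 μg/mL and 4144, 4632 and 3441 FPKM at 500 μg/mL, so the drop lay between 500 and 1000 μg/mL (log2 fold change -1.57 ± 0.23 SE, adjusted p = 0.0014). The second gene of this kind, jgi_Trias1_58848, had 6.42, 6.83 and 3.65 FPKM at 1000 μg/mL, against 22.7, 35.2 and 32.04 FPKM in CK (log2 fold change -2.24 ± 0.32 SE, adjusted p = 0.000151). At 500 μg/mL it had 15.96, 19.4 and 18.1 FPKM, below every library of CK and of 100 μg/mL, but was not called (log2 fold change -0.70 ± 0.32 SE, adjusted p = 0.146). Its level was a small fraction of that of jgi_Trias1_146486. The log2 fold changes without CK replicate 1 were -1.78 and -2.42.

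The pump took a smaller part of the whole set at the top dose. jgi_Trias1_146486 held 14.0% to 18.9% of the summed FPKM of the 114 genes in the libraries at 1000 μg/mL, against 34.7% to 36.1% in CK. The 114 genes together held 0.847% to 1.03% of all FPKM at 1000 μg/mL, against 1.33% to 1.48% in CK. Their share was 1.29% to 1.36% at 100 μg/mL and 1.24% to 1.36% at 500 μg/mL, so at these doses it overlapped the range of CK.

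**Figure D3:**
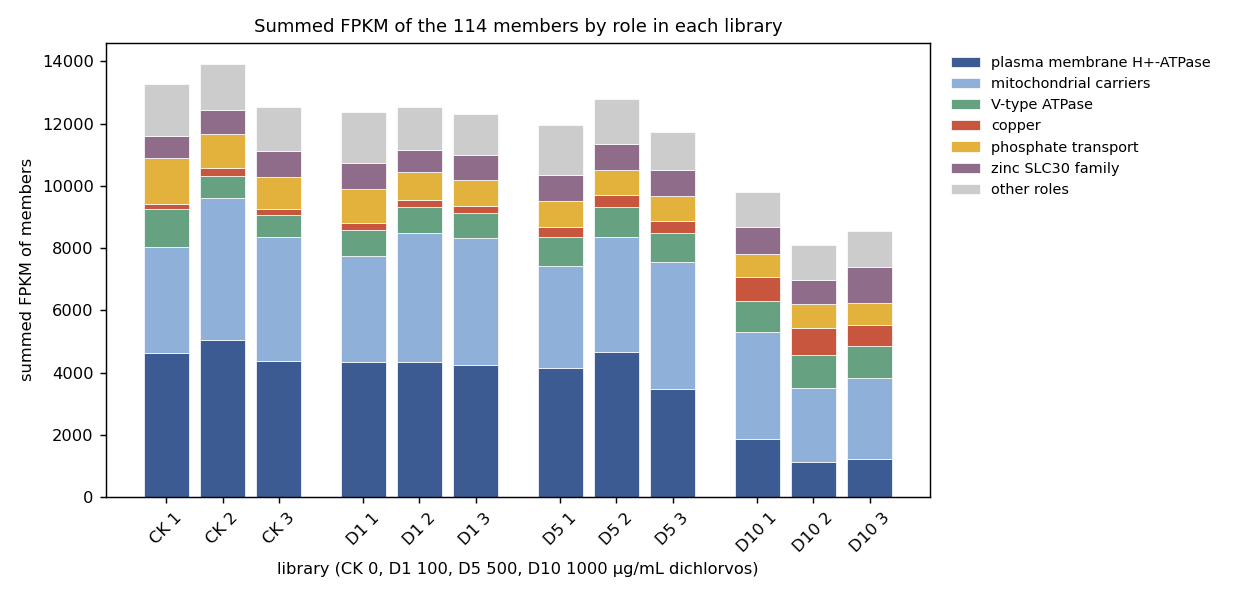
Summed FPKM (vertical) of the 114 genes in each of the 12 libraries (bars, CK, D1, D5 and D10 from left to right), stacked by role, with the 6 roles of fewer or less abundant genes joined as other roles. The bars reach 8087 to 9800 at 1000 μg/mL, against 12527 to 13908 in CK, and the part of the plasma membrane proton pump shrinks most.

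Sodium pumps changed in opposite directions. jgi_Trias1_24714, which matched the alpha subunit of the Na+/K+-transporting ATPase that exchanges sodium for potassium in animals, had the largest change of all the genes described here. It had 4.02, 4.0 and 5.2 FPKM at 1000 μg/mL, against 147, 223 and 204 FPKM in CK (log2 fold change -5.14 ± 0.30 SE, adjusted p = 5.91e-08), so that the mean of CK was 43.4 times that at 1000 μg/mL. The group means fell with each dose, with 71.7, 42.7 and 38.8 FPKM at 100 μg/mL (log2 fold change -1.92 ± 0.30 SE, adjusted p = 0.0017) and 32.96, 23.1 and 16.3 FPKM at 500 μg/mL (log2 fold change -2.97 ± 0.30 SE, adjusted p = 1.9e-05). The step from 100 to 500 μg/mL was not called over 12 libraries (log2 fold change -1.05 ± 0.30 SE, adjusted p = 0.101). It was called when CK replicate 1 was left out of the fit (adjusted p = 0.0265). No library of any dose reached the lowest CK library, and the group at 1000 μg/mL lay below the other 2 doses. Leaving out CK replicate 1 gave log2 fold changes of -2.09, -3.15 and -5.32 from the low to the high dose.

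A second gene of this orthology, jgi_Trias1_151795, was low throughout, with 0.15, 0 and 0.05 FPKM at 1000 μg/mL, against 5.19, 2.93 and 2.02 FPKM in CK (log2 fold change -1.98 ± 0.27 SE, adjusted p = 0.000111), and was listed at 0 in 1 library. It had 0.53, 0.45 and 0.49 FPKM at 100 μg/mL and 0.15, 0.25 and 0.15 FPKM at 500 μg/mL, all below CK, and was called lower at each dose. It reached the mean of 1 FPKM needed for testing only through the CK libraries, so its p-values carry that limit. With no minimum FPKM it was also called at each dose, and its call at 100 μg/mL was lost with the 2 groups alone. The third, jgi_Trias1_60524, a weak match, was not called at any dose (log2 fold change -0.54 ± 0.26 SE, adjusted p = 0.122). In contrast, jgi_Trias1_192797, which matched the Na+-exporting ATPase that expels sodium in yeast, had 78.9, 93.7 and 84.9 FPKM at 1000 μg/mL, against 11.6, 17.4 and 19.4 FPKM in CK (log2 fold change 2.37 ± 0.22 SE, adjusted p = 4.58e-06). It was already higher at 500 μg/mL, with 60.3, 54.7 and 74.9 FPKM (log2 fold change 1.93 ± 0.22 SE, adjusted p = 6.19e-05), and was not called at 100 μg/mL (28.6, 21.8 and 24.02 FPKM). Its libraries at 500 and 1000 μg/mL did not overlap those of CK or of 100 μg/mL, and without CK replicate 1 the log2 fold change at 1000 μg/mL was 2.16. A further Na+-exporting ATPase gene, jgi_Trias1_49108, had 3.09, 3.04 and 3.31 FPKM at 1000 μg/mL, against 3.35, 0.5 and 0.4 FPKM in CK, so its groups overlapped through CK replicate 1 alone. It was not called over 12 libraries (log2 fold change 0.99 ± 0.37 SE, adjusted p = 0.051) and was called without CK replicate 1 (log2 fold change 1.52).

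**Figure D4:**
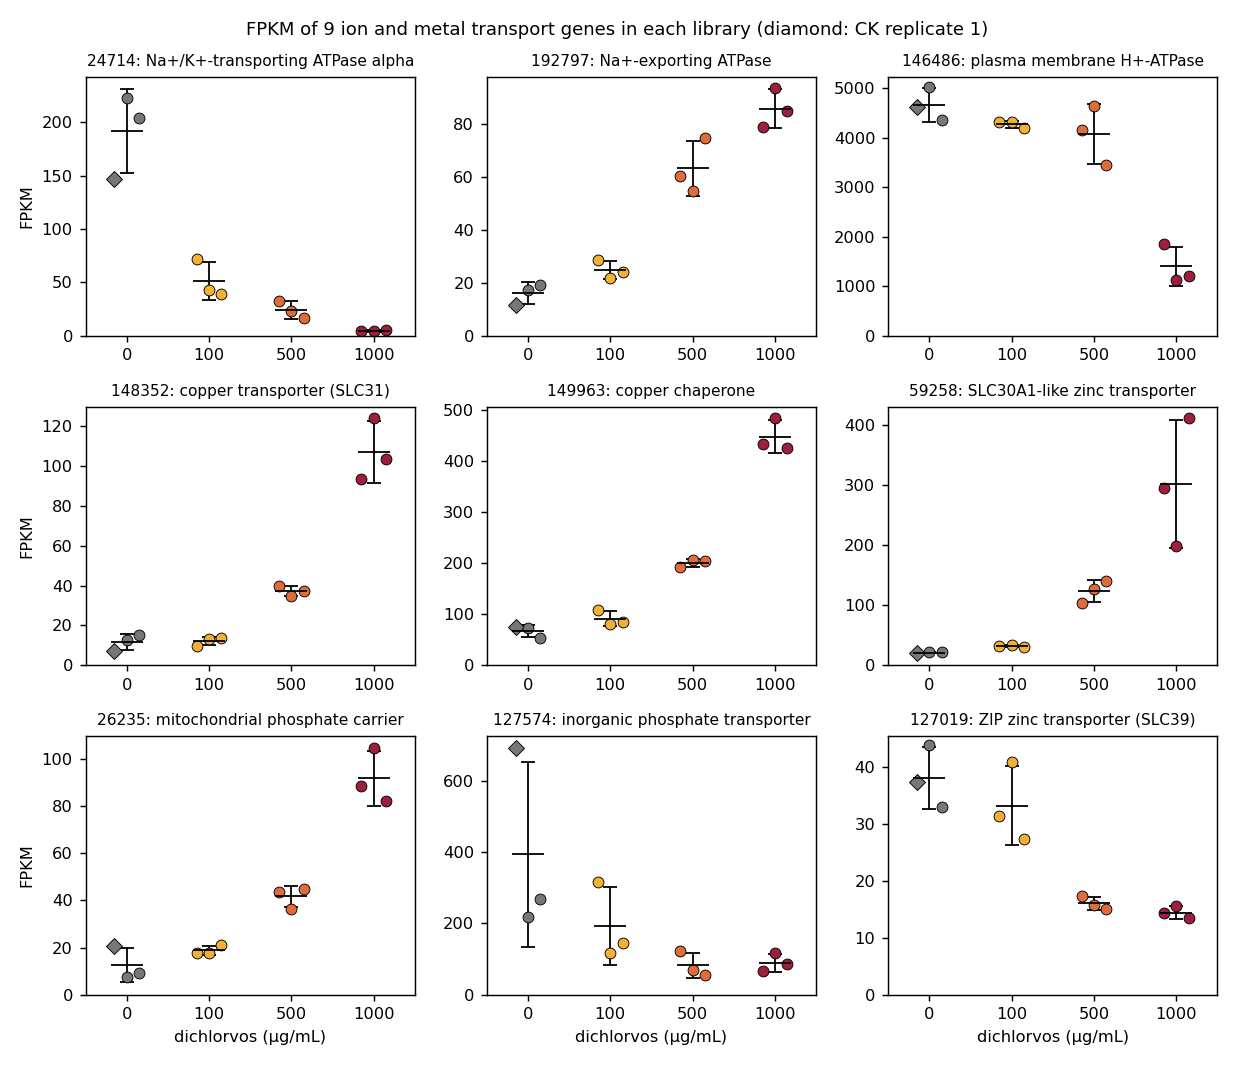
FPKM (vertical, from 0) of 9 genes in each library against the dichlorvos dose (horizontal, 0, 100, 500 and 1000 μg/mL); points are libraries, the diamond is CK replicate 1, and the black marks are the mean ± SD of 3 libraries. The mean of the Na+/K+-transporting ATPase gene falls at every step, and its libraries lie between 4.0 and 5.2 FPKM at 1000 μg/mL. The copper, SLC30 zinc and mitochondrial phosphate carrier genes climb mainly at 500 and 1000 μg/mL, whereas the ZIP zinc gene is lower at these doses. The plasma membrane proton pump is lowest at 1000 μg/mL.

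The V-type ATPase was tested for all 15 genes, which cover subunits of the catalytic and of the membrane part. At 1000 μg/mL 3 were called higher and none lower over 12 libraries (5 higher and 0 lower at an unadjusted p under 0.05), and 6 higher and none lower without CK replicate 1. Of all tested genes 19.2% were higher and 7.81% lower over 12 libraries, and 25.9% and 7.68% without CK replicate 1. The same shares stand beside the counts of the other roles at this dose. The subunit D gene jgi_Trias1_194803 had 32.1, 47.02 and 37.2 FPKM at 1000 μg/mL, against 22.9, 10.5 and 9.72 FPKM in CK (log2 fold change 1.46 ± 0.29 SE, adjusted p = 0.0019), and the subunit F gene jgi_Trias1_65425 had 53.1, 60.7 and 49.5 FPKM, against 30.6, 16.4 and 22.4 FPKM in CK (log2 fold change 1.24 ± 0.26 SE, adjusted p = 0.0025). In both, the groups did not overlap. The third, jgi_Trias1_42632, a weak match to the 16 kDa proteolipid, had 6.03, 9.04 and 6.3 FPKM at 1000 μg/mL, against 5.72, 1.98 and 2.21 FPKM in CK (log2 fold change 1.0 ± 0.33 SE, adjusted p = 0.0296). It lay at the fold threshold and lost its call without D10 replicate 2 (0.84), D10 replicate 3 (adjusted p = 0.0559), CK replicate 2 (0.79) or CK replicate 3 (0.84). With centring, jgi_Trias1_65425 was at 0.98 and jgi_Trias1_42632 at 0.74, and only jgi_Trias1_194803 of the 3 kept its call.

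CK replicate 1 was high for this complex. All 15 genes were higher in it than in the mean of CK replicates 2 and 3, 8 of them by more than 2-fold, with a median difference of 1.08 on the log2 scale, against 0.50 over all tested genes. The genes called only without it were those of subunit C (jgi_Trias1_143549, log2 fold change 1.08), subunit e (jgi_Trias1_66524, 1.17) and the 21 kDa proteolipid (jgi_Trias1_66579, 1.04). The most abundant gene, the 16 kDa proteolipid jgi_Trias1_60274, had 214, 199 and 209 FPKM at 1000 μg/mL, against 177, 144 and 140.3 FPKM in CK, so its groups did not overlap, but its log2 fold change of 0.44 was under the threshold. The proteolipid gene jgi_Trias1_275125 had the lowest log2 fold change of the complex, -0.24 (57.95, 54.8 and 63.5 FPKM at 1000 μg/mL, against 106, 52.1 and 61.03 FPKM in CK), which without CK replicate 1 was 0.06. The median over the 15 genes was 0.36 over 12 libraries and 0.61 without CK replicate 1, where the medians of all tested genes were 0.18 and 0.37.

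**Figure D5:**
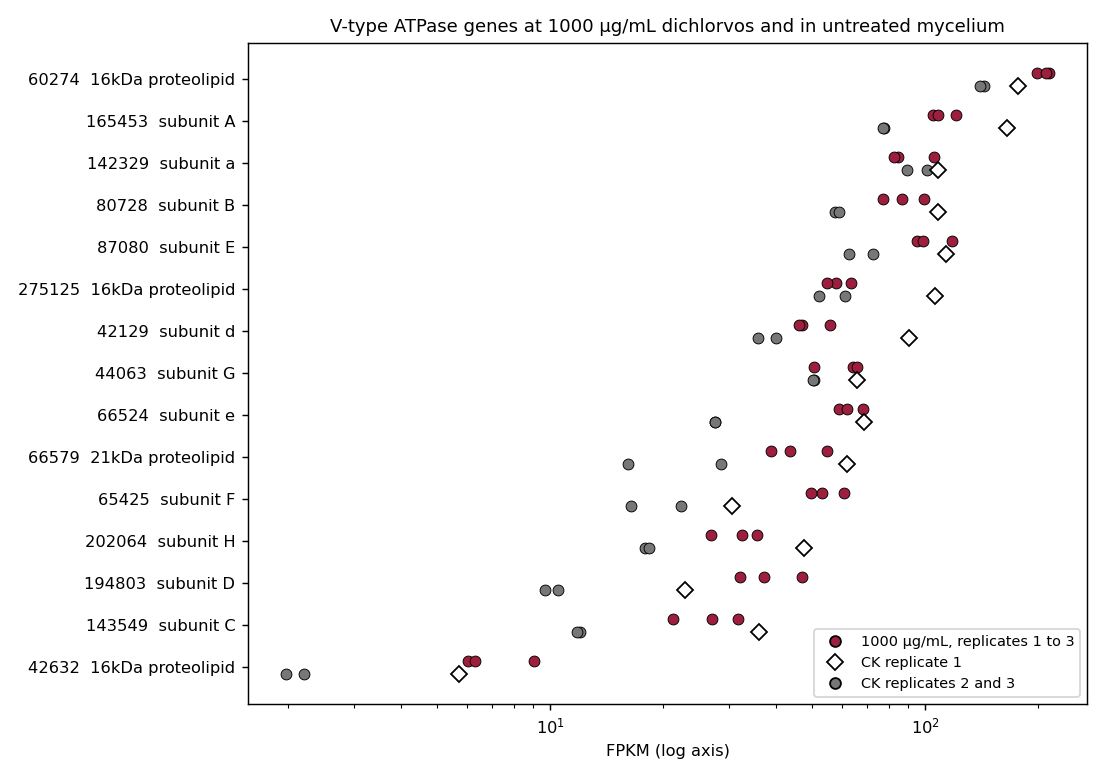
FPKM (horizontal, log axis) of the 15 V-type ATPase genes (rows, labelled by the digits of the gene identifier and the subunit) in the 3 libraries at 1000 μg/mL dichlorvos (upper points of each row) and in the CK libraries (lower points); the open diamond is CK replicate 1. The diamond lies right of both other CK libraries in all 15 rows.

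Of 4 tested potassium transport genes, 1 was higher and 1 lower at 1000 μg/mL, and 1 was called at a lower dose. jgi_Trias1_75926, a match to the KUP potassium uptake carriers, had 29.1, 27.1 and 23.5 FPKM at 500 μg/mL, against 10.8, 8.18 and 9.85 FPKM in CK (log2 fold change 1.38 ± 0.21 SE, adjusted p = 0.000641), and 21.1, 18.4 and 22.8 FPKM at 1000 μg/mL (log2 fold change 1.04 ± 0.21 SE, adjusted p = 0.002). The groups did not overlap. The call at 1000 μg/mL lay near the fold threshold and was lost without D10 replicate 3 (0.97), without CK replicate 2 (0.94) and with centring (0.78). The potassium channel gene jgi_Trias1_29670, the most abundant of this role, fell at 1000 μg/mL to 54.6, 38.5 and 41.7 FPKM, against 117, 105 and 99.7 FPKM in CK (log2 fold change -1.25 ± 0.17 SE, adjusted p = 0.000123), and was not called at the lower doses. The weak KUP match jgi_Trias1_147772 had 50.95, 44.8 and 44.4 FPKM at 1000 μg/mL, against 47.9, 16.8 and 17.6 FPKM in CK, and was called without CK replicate 1 only (log2 fold change 1.39). The potassium-chloride cotransporter gene jgi_Trias1_67800 was not called (log2 fold change -0.04 at 1000 μg/mL).

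Of 5 calcium transport genes, 1 was called lower at 1000 μg/mL and none higher. This was the exchanger gene jgi_Trias1_85811 of the SLC24 family, which swaps sodium for calcium in animals. It had 75.7, 44.9 and 98.5 FPKM at 1000 μg/mL, against 178, 162 and 141 FPKM in CK (log2 fold change -1.19 ± 0.29 SE, adjusted p = 0.0061), and 184, 189 and 127 FPKM at 500 μg/mL. Its call was lost without D10 replicate 2 (log2 fold change -0.88). The most abundant calcium pump gene, jgi_Trias1_143560, had 230.3, 246 and 293 FPKM at 1000 μg/mL, against 275, 253 and 222 FPKM in CK (log2 fold change 0.04 ± 0.30 SE, adjusted p = 0.943), and the other 3 calcium pumps were not called, with log2 fold changes of -0.98 to -0.72. Of these, jgi_Trias1_188546 and jgi_Trias1_147563 were the 2 genes of this role more than 2-fold higher in CK replicate 1, and without it their values were -0.37 and -0.19.

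Copper genes were higher at 1000 μg/mL in 4 of 8 tested cases and lower in none, both over 12 libraries and without CK replicate 1. The shares of all tested genes were 19.2% and 7.81%, or 25.9% and 7.68% without CK replicate 1. The putative copper chaperone jgi_Trias1_149963 (weak match), a kind of small protein that hands copper on inside the cell, had 432, 485 and 426 FPKM at 1000 μg/mL, against 75.4, 73.8 and 53.4 FPKM in CK (log2 fold change 2.73 ± 0.18 SE, adjusted p = 2.14e-07). It had 192, 207 and 204 FPKM at 500 μg/mL (log2 fold change 1.57 ± 0.18 SE, adjusted p = 6.51e-05) and 108, 80.98 and 84.99 FPKM at 100 μg/mL (log2 fold change 0.44 ± 0.18 SE, adjusted p = 0.214). Thus each of the 2 upper doses lay clear of all lower ones.

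The SLC31 genes, which encode copper uptake transporters of the plasma membrane, showed the same direction with different sizes. jgi_Trias1_148352 had 93.6, 124 and 103 FPKM at 1000 μg/mL, against 7.32, 12.8 and 15.3 FPKM in CK (log2 fold change 3.12 ± 0.26 SE, adjusted p = 1.48e-06), and 40.04, 34.7 and 37.2 FPKM at 500 μg/mL (log2 fold change 1.63 ± 0.26 SE, adjusted p = 0.000794), while at 100 μg/mL its 9.66, 13.1 and 13.5 FPKM overlapped CK. jgi_Trias1_126469 (weak match) had 27.9, 34.2 and 31.9 FPKM at 1000 μg/mL, against 11.7, 8.6 and 8.89 FPKM in CK (log2 fold change 1.60 ± 0.21 SE, adjusted p = 6.88e-05). jgi_Trias1_132630 (weak match) had 8.34, 16.4 and 10.04 FPKM, against 3.56, 5.49 and 4.74 FPKM in CK (log2 fold change 1.14 ± 0.33 SE, adjusted p = 0.0172), and its call was lost without D10 replicate 2 (0.87), without CK replicate 1 (0.99) and with centring (0.88). The 2 copper-fist transcription factor genes, a family that in yeast switches copper genes, were not called at any dose, with log2 fold changes of 0.67 in jgi_Trias1_132276 and 0.26 in jgi_Trias1_44185 at 1000 μg/mL. Of the 2 copper homeostasis genes, jgi_Trias1_62733 was called only without CK replicate 1 (1.03) and jgi_Trias1_137707 was not called, at 1.56, 3.75 and 4.81 FPKM at 1000 μg/mL, against 0, 0.53 and 2.1 FPKM in CK. The summed FPKM of the copper role was 680.3 to 845 at 1000 μg/mL, against 169.6 to 252 in CK.

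Among the SLC30 genes, a family that in animals and yeast moves zinc out of the cytosol, 1 was higher and 2 were lower at 1000 μg/mL of 14 tested, or 3 and 1 without CK replicate 1. Over all tested genes these shares were 19.2% and 7.81%, or 25.9% and 7.68%. jgi_Trias1_59258 (weak match) had the largest increase of the genes described here, with 296, 199 and 411 FPKM at 1000 μg/mL, against 20.4, 21.6 and 21.5 FPKM in CK (log2 fold change 3.71 ± 0.24 SE, adjusted p = 1.38e-07), and the mean was 14.3 times that of CK. It had 104, 126 and 141 FPKM at 500 μg/mL (log2 fold change 2.48 ± 0.24 SE, adjusted p = 1.24e-05) and 31.8, 34.3 and 29.9 FPKM at 100 μg/mL (log2 fold change 0.57 ± 0.24 SE, adjusted p = 0.208). The CK libraries lay close together, and every treated library was above them. Without CK replicate 1 the log2 fold change at 1000 μg/mL was 3.69.

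The lower SLC30 genes were jgi_Trias1_43725, a match to members 5 and 7 of the family, which in animals act in the secretory pathway, and the weak match jgi_Trias1_65239. The first had 10.8, 14.4 and 12.6 FPKM at 1000 μg/mL, against 50.7, 27.4 and 30.9 FPKM in CK (log2 fold change -1.42 ± 0.32 SE, adjusted p = 0.0038), and remained called without CK replicate 1 (-1.16). The second had 0.4, 1.24 and 2.05 FPKM, against 5.88, 4.44 and 2.01 FPKM in CK (log2 fold change -1.19 ± 0.37 SE, adjusted p = 0.0249), and its groups overlapped. Its call was lost without CK replicate 1 (-0.93), CK replicate 2 (adjusted p = 0.0695), D10 replicate 1 (-0.89) or D10 replicate 2 (adjusted p = 0.0564). The most abundant gene of the family, jgi_Trias1_30145, was not called, with 279, 228 and 433 FPKM at 1000 μg/mL, against 357, 472 and 494 FPKM in CK (log2 fold change -0.53 ± 0.23 SE, adjusted p = 0.0859). jgi_Trias1_56828 and jgi_Trias1_54631 were called higher at 1000 μg/mL without CK replicate 1 only (1.13 and 1.58).

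The ZIP genes, which bring zinc into the cytosol, included 2 that were lower at 1000 μg/mL and none that was higher of 8 tested, or 1 and none without CK replicate 1. Of all tested genes 7.81% were lower and 19.2% higher, or 7.68% and 25.9% without CK replicate 1. jgi_Trias1_127019 had 14.3, 15.6 and 13.4 FPKM at 1000 μg/mL, against 37.2, 43.8 and 32.99 FPKM in CK (log2 fold change -1.33 ± 0.21 SE, adjusted p = 0.000329), and was already lower at 500 μg/mL with 17.4, 15.7 and 15.1 FPKM (log2 fold change -1.19 ± 0.21 SE, adjusted p = 0.0017). The groups at these doses did not overlap CK, and without CK replicate 1 the log2 fold change at 1000 μg/mL was -1.34. jgi_Trias1_48695, whose closest protein was a glycosyltransferase, had 14.5, 15.6 and 13.4 FPKM, against 45.04, 21.9 and 27.7 FPKM in CK (log2 fold change -1.01 ± 0.25 SE, adjusted p = 0.0068), and was no longer called without CK replicate 1 (-0.73) or without D10 replicate 3 (-0.96). The most abundant ZIP gene, jgi_Trias1_210827, was not called (log2 fold change 0.18), and neither was jgi_Trias1_147373, which had the highest log2 fold change of the family at 0.28. The other 4 ZIP genes had log2 fold changes of -0.61 to -0.08.

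The ferric reductase genes, whose products reduce ferric iron at the cell surface, had 1 gene called of 7 tested, or 2 at 1000 μg/mL without CK replicate 1. jgi_Trias1_77627 had 3.0, 8.06 and 4.93 FPKM at 100 μg/mL, 6.04, 6.8 and 5.31 FPKM at 500 μg/mL and 3.29, 6.01 and 3.75 FPKM at 1000 μg/mL, and 0.28, 0.77 and 0.61 FPKM in CK. It was higher at every dose (log2 fold change 1.96 ± 0.32 SE, adjusted p = 0.0025 at 100 μg/mL, log2 fold change 2.19 ± 0.32 SE, adjusted p = 0.000489 at 500 μg/mL and log2 fold change 1.76 ± 0.32 SE, adjusted p = 0.000993 at 1000 μg/mL), and none of the comparisons between doses was called. Its log2 fold changes without CK replicate 1 were 1.83, 2.06 and 1.63. The most abundant gene of the role, jgi_Trias1_175935, had 41.5, 53.9 and 44.8 FPKM at 1000 μg/mL, against 26.8, 28.7 and 30.2 FPKM in CK, and its log2 fold change of 0.69 was below the threshold although the groups did not overlap. All 6 other tested ferric reductases had log2 fold changes between 0.15 and 0.82, the lowest in jgi_Trias1_57638, and jgi_Trias1_126621 was called without CK replicate 1 (1.23).

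Iron transporters were called only among those for siderophores. jgi_Trias1_61683 had 2.64, 3.33 and 3.79 FPKM at 1000 μg/mL, against 0, 0.1 and 0.39 FPKM in CK (log2 fold change 1.88 ± 0.25 SE, adjusted p = 0.000103), and jgi_Trias1_62150 had 2.52, 3.31 and 2.88 FPKM, against 0.24, 0 and 0.19 FPKM in CK (log2 fold change 1.77 ± 0.22 SE, adjusted p = 5.1e-05). Both were listed at 0 in a CK library and stayed under 4 FPKM at the top dose, so on the log2(FPKM + 1) scale their fold changes are understated. Their means in CK and at the 2 lower doses were under 1 FPKM. Thus they reached the mean of 1 FPKM needed for testing only through the libraries at 1000 μg/mL, where they were high. Their p-values carry that limit, although both were also called with no minimum FPKM. The more abundant siderophore transporter genes, jgi_Trias1_148434 and jgi_Trias1_68845, were not called (log2 fold changes 0.17 and -0.24, or -0.27 and -0.16 without CK replicate 1). The most abundant iron transporter, jgi_Trias1_65825, matched the metal ion transporters that carry iron and manganese in yeast and had 84.7, 77.4 and 51.6 FPKM at 1000 μg/mL, against 38.5, 118 and 132 FPKM in CK, with overlapping groups and a log2 fold change of -0.28. The high-affinity iron permease gene jgi_Trias1_61131 and the mitochondrial iron carrier gene jgi_Trias1_24867 were likewise not called (0.05 and -0.16, or 0.21 and 0.12 without CK replicate 1).

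Phosphate transport split evenly at 1000 μg/mL, with 4 genes higher and 4 lower of 15 tested over 12 libraries, and 4 and 3 without CK replicate 1. The shares over all tested genes were 19.2% and 7.81%, and 25.9% and 7.68% without CK replicate 1. The lower genes were annotated as inorganic phosphate transporters of the PHS family, which in yeast import phosphate with protons. The same annotation was given to jgi_Trias1_132428, jgi_Trias1_149833 and jgi_Trias1_23420 among the higher genes, so the family went with neither direction. The remaining higher gene, jgi_Trias1_67122, was annotated as a sodium-dependent phosphate transporter. jgi_Trias1_26849, a close match, had 123, 119 and 135 FPKM at 1000 μg/mL, against 309, 281 and 255 FPKM in CK (log2 fold change -1.15 ± 0.20 SE, adjusted p = 0.00069), with groups that did not overlap. jgi_Trias1_127574 (weak match) had 65.6, 116 and 86.5 FPKM at 1000 μg/mL, against 692, 219 and 269 FPKM in CK (log2 fold change -1.97 ± 0.47 SE, adjusted p = 0.0052), and 123, 69.2 and 55.3 FPKM at 500 μg/mL (log2 fold change -2.13 ± 0.47 SE, adjusted p = 0.0066). Its groups at both doses lay below CK, and CK replicate 1, at more than 2-fold the other CK libraries, added to the difference, which without it was -1.63 at 500 μg/mL and -1.47 at 1000 μg/mL.

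jgi_Trias1_55602, a close match, had 1.3, 1.34 and 0.92 FPKM at 1000 μg/mL, against 3.78, 6.71 and 5.57 FPKM in CK (log2 fold change -1.52 ± 0.26 SE, adjusted p = 0.000577). It was lower at all doses, with 1.76, 1.2 and 1.88 FPKM at 100 μg/mL and 0.7, 1.09 and 0.81 FPKM at 500 μg/mL, and its call at 100 μg/mL was lost without D1 replicate 2 (adjusted p = 0.0635). jgi_Trias1_127373, also a close match, had 5.38, 6.77 and 8.07 FPKM at 1000 μg/mL, against 39.4, 13.8 and 14.5 FPKM in CK (log2 fold change -1.45 ± 0.41 SE, adjusted p = 0.0142), and was no longer called at 1000 μg/mL without CK replicate 1 (-0.98) or D10 replicate 1 (adjusted p = 0.0546), nor at 500 μg/mL without CK replicate 1 (-0.98), D5 replicate 2 (adjusted p = 0.103) or D5 replicate 3 (adjusted p = 0.0769). Of the 4 lower phosphate transporters 3 were close matches to their KEGG entry, and the 4 higher ones were all weak matches. Weak matches made up 12 of the 18 genes of the role, and the difference was not tested. The higher genes were jgi_Trias1_132428 (2.01, 3.76 and 1.54 FPKM at 1000 μg/mL, against 0.15, 0.25 and 0.13 FPKM in CK, log2 fold change 1.5), jgi_Trias1_149833 (1.49), jgi_Trias1_23420 (1.36) and jgi_Trias1_67122 (1.15). The first of them reached the mean of 1 FPKM needed for testing only through the treated libraries. The call of jgi_Trias1_149833 was lost without any 1 of the 3 D10 libraries (adjusted p of 0.0599, 0.0978 and 0.0835 without replicates 1, 2 and 3) and without CK replicate 2 or 3 (0.124 and 0.132), and that of jgi_Trias1_67122 without CK replicate 2 (log2 fold change 0.97) and with centring (0.89). With centring and without CK replicate 1, jgi_Trias1_67122 (0.83), jgi_Trias1_23420 (0.91) and jgi_Trias1_132428 (0.997) were under the fold threshold. A further weak match, jgi_Trias1_138139, was called only at 500 μg/mL (4.02, 5.6 and 14.4 FPKM, against 1.79, 1.84 and 3.04 FPKM in CK, log2 fold change 1.33 ± 0.41 SE, adjusted p = 0.0354), where D5 replicate 3 was far above the other libraries and the log2 fold change without it was 0.86. That call was also lost without D5 replicate 2, CK replicate 2 or D1 replicate 2 (adjusted p of 0.0643, 0.0869 and 0.0519). The most abundant gene of the role, jgi_Trias1_57045, a weak match to the sodium-dependent phosphate transporters, was not called (log2 fold change 0.12 ± 0.35 SE, adjusted p = 0.831), and its value without CK replicate 1 was -0.35.

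The mitochondrial carriers of phosphate and related solutes held 1 called gene of 10. jgi_Trias1_26235, a close match to the mitochondrial phosphate carrier that brings phosphate into the matrix for ATP synthesis, had 88.3, 105 and 82.3 FPKM at 1000 μg/mL, against 20.7, 7.58 and 9.04 FPKM in CK (log2 fold change 2.90 ± 0.30 SE, adjusted p = 1.04e-05). It had 43.5, 36.5 and 45.05 FPKM at 500 μg/mL (log2 fold change 1.79 ± 0.30 SE, adjusted p = 0.0012) and 17.6, 17.7 and 21.1 FPKM at 100 μg/mL, where it was called only without CK replicate 1 (1.09). The gene jgi_Trias1_27969 of the same orthology was the second most abundant of the 114, with 2141, 1191 and 1439 FPKM at 1000 μg/mL, against 2330.4, 3325 and 2723 FPKM in CK. Its groups did not overlap, but the log2 fold change of -0.84 (adjusted p = 0.0171) did not reach the threshold, and without CK replicate 1 it was -0.96. The gene called was thus a minor one of its kind in CK and stayed below the main one at 1000 μg/mL. The other 8 carriers had log2 fold changes between -0.50 and 0.62.

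Comparisons between doses do not use CK except for the shared estimate of the spread. At 500 against 100 μg/mL 5 genes were called higher and none lower (all genes 1.92% and 0.258%), with 13 higher and 4 lower at an unadjusted p under 0.05, and 7 higher and 2 lower when CK replicate 1 was left out of the fit (3.39% and 1.03%). Without D1 replicate 3, 1 was lower. The 5 were jgi_Trias1_59258, jgi_Trias1_148352, jgi_Trias1_149963, jgi_Trias1_192797 and jgi_Trias1_75926, which are the zinc, copper, sodium and potassium genes described above. At 1000 against 500 μg/mL 7 were higher and 5 lower (5.42% and 2.12%), or 9 and 5 without CK replicate 1 (7.02% and 3.33%). Leaving out D5 replicate 2 gave 3 lower. The 5 lower genes were both plasma membrane proton pumps, jgi_Trias1_24714, jgi_Trias1_29670 and jgi_Trias1_85811. At 1000 against 100 μg/mL 16 were higher and 8 lower (13.0% and 5.48%), or 19 and 9 without CK replicate 1 (14.6% and 6.46%). The group means of 14 of the 100 genes climbed at each step of the series 0, 100, 500 and 1000 μg/mL and those of 19 fell at each step, against 17.8% and 13.7% of all tested genes, and without CK replicate 1 the counts were 23 and 16, against 27.4% and 10.6%.

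Weak and close matches were counted apart. Of 37 tested weak matches, 9 rose and 3 fell at 1000 μg/mL, and of 63 tested close matches 9 were higher and 11 lower. Without CK replicate 1 the counts were 11 and 1 among weak matches and 15 and 10 among close ones, and with centring over 12 libraries they were 6 and 3 among weak matches and 7 and 14 among close ones. Of all tested genes 19.2% were higher and 7.81% lower over 12 libraries. Those shares were 25.9% and 7.68% without CK replicate 1, and 14.3% and 12.5% with centring. The difference between the 2 kinds was not tested. The 14 genes that were not tested never exceeded 2.09 FPKM in any library. They comprised 4 ferric reductases, 3 iron transporters, 3 phosphate transporters, 2 SLC30 genes, 1 KUP gene and 1 Na+-exporting ATPase. In 5 of them all libraries at 1000 μg/mL were above all of CK and in none below, against 13.4% and 2.23% of the 2731 genes of the table that were not tested, with the highest levels at 1000 μg/mL in the ferric reductase jgi_Trias1_152886 (1.23, 2.08 and 1.66 FPKM, against 0.09, 0 and 0.15 FPKM in CK).

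Other genes of ion transport were counted from lists made by keyword on the same annotation. None of the 16 F-type ATPase genes, the mitochondrial ATP synthase, was called at 1000 μg/mL in either direction (limma over 12 libraries, with 2 higher and 3 lower at an unadjusted p under 0.05), with a median log2 fold change of 0.06, and 1 was called lower with centring. Of 37 tested genes with an ABC (ATP-binding cassette) description 19 were higher and 1 lower (median 1.07), and 22 and 0 without CK replicate 1 (median 1.22). That list was made by name and was not limited to membrane transporters, as it also held genes of subfamily F, such as jgi_Trias1_129097. Of 11 genes for magnesium transport, copper export and related metal handling 3 were higher and none lower, of 10 calcium signalling genes 2 were higher and 1 lower, of 6 sulfate and chloride transport genes 1 was higher, and of 2 genes for siderophore synthesis and iron storage 1 was lower. When CK replicate 1 was left out the calcium signalling genes had 4 higher and 1 lower, the sulfate and chloride genes 2 higher, the metal handling genes 4 higher and the siderophore genes none. All tested genes had 19.2% higher and 7.81% lower, with a median of 0.18.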

How the data were processed

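RNA of 12 mycelium libraries, 3 each at 100, 500 and 1000 μg/mL dichlorvos and in control broth, was sequenced, and the labels gave each library its group. FPKM values per gene were deposited by the authors, mapped to the Trias1 genome; BWA, Bowtie and RSEM are named in the submitters' processing notes without versions or roles. Depth in reads is unknown, and 0 columns had no assigned library. Values were taken as log2(FPKM + 1), which understates changes of low genes, and 8916 genes with a mean of at least 1 FPKM were fitted in 1 model over 4 groups with limma 3.58.1 in R 4.3.3 (trend, Benjamini-Hochberg adjustment); the scripts were tested on simulated data. Calls needed an adjusted p under 0.05 and a log2 change of more than 1 in size. The smallest exact permutation p for 3 against 3 libraries is 0.1, so none was used. Named genes were the 15 largest called changes, the highest and lowest log2 fold change at 1000 μg/mL and the highest mean of each role, and other genes were chosen after their values were seen. The members and lists were chosen with earlier results of these data known. Libraries of D1 and CK with the same replicate number deviated together from their group means (3 of 3 pairs above r = 0.1). For D5 and CK this held for replicates 1 and 3 (r = 0.333 and 0.3331) but not for replicate 2 (-0.0137). No pair of D10 and CK was above r = 0.1. The labels give no source of such pairing. Alternatives were a pseudocount of 0.1, a minimum of 5 FPKM or none, TPM, centring on the library median, library weights, 2 groups alone, a replicate block, a rule written after NOISeq (probability above 0.8) and leaving out each library. Python 3.11.15 was used for counts and figures.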

Additional observations from a re-analysis of the deposited data

How the results depend on the processing

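Counts of called genes moved by more than 1.5 times under these settings. At 100 μg/mL the 1 higher gene became 2 with a pseudocount of 0.1, 0 at a minimum of 5 FPKM, 5 with library weights, 0 by the NOISeq rule with or without CK replicate 1, and the 3 lower genes became 1 at a minimum of 5 FPKM, 1 with the 2 groups alone and 1 by the NOISeq rule with or without CK replicate 1. At 500 μg/mL the 8 higher became 16 with library weights, 1 by the NOISeq rule and 4 by that rule without CK replicate 1, and the 6 lower became 2 by the NOISeq rule with or without CK replicate 1 and 10 with centring and without CK replicate 1. At 1000 μg/mL the 18 higher became 28 with library weights, 5 by the NOISeq rule and 7 by that rule without CK replicate 1, and the 14 lower became 3 and 7 by the NOISeq rule with and without CK replicate 1. Between 500 and 100 μg/mL the 5 higher became 3 with centring and 8 with library weights, and the 0 lower became 1 with a pseudocount of 0.1, 1 with centring, 2 with library weights and 4 with centring and without CK replicate 1. The F-test count of 38 became 84 with library weights and 61 with centring and without CK replicate 1. Leaving out 1 library gave 28 to 60 for the F-test, 1 to 4 higher and 2 to 3 lower at 100 μg/mL, 7 to 11 and 5 to 7 at 500 μg/mL, 14 to 26 and 11 to 15 at 1000 μg/mL, 4 to 7 and 0 to 2 for 500 against 100 μg/mL, 5 to 9 and 3 to 6 for 1000 against 500 μg/mL, and 12 to 19 and 6 to 9 for 1000 against 100 μg/mL. The cause of these shifts was not tested. Under every limma alternative 10 of 18 higher and 10 of 14 lower genes at 1000 μg/mL kept their call, and no call against CK reversed. Of the named genes without a call at 1000 μg/mL, jgi_Trias1_275125, jgi_Trias1_57045, jgi_Trias1_148434 and jgi_Trias1_24867 changed sign without CK replicate 1. The replicate numbers went together in part. The 3 pairs of D1 with CK all correlated above 0.1 (0.4952, 0.1655 and 0.4312), whereas the D10 pairs lay between -0.3191 and 0.0012. The pairs of D5 with CK were at 0.333, -0.0137 and 0.3331, and those of D1 with D5 at 0.4081, 0.0566 and 0.3977. Over all groups 7 of 18 pairs were above 0.1 and 7 of 12 libraries correlated best with their own number. The replicate block gave 1 higher and 3 lower at 100 μg/mL, 8 and 6 at 500 μg/mL, 18 and 14 at 1000 μg/mL and 36 for the F-test, and changed no call of a gene. Without read depth, precision at low FPKM cannot be given.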
